A study of Canis lupus familiaris with 18 samples.

Results

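The comparison was between 2 stages of heart failure in 1 heart chamber. The 3 arrays of right ventricle (RV) tissue from dogs in late heart failure (HF), paced for 5 weeks, were set against the 3 arrays of RV tissue from dogs in early HF, paced for 2 weeks. These 6 arrays were chosen by their titles and belong to a series of 18 Affymetrix Canine_2 arrays, which also holds 3 arrays of RV control tissue and 9 arrays of right atrium (RA). HF was induced in both stages by rapid ventricular pacing (tachypacing) of adult dogs, either mongrels or beagles. The treatment protocol gives the pacing as 2 to 3 weeks for early and 5 to 6 weeks for late HF, and the controls are labelled only as control. Each array measured total RNA from a small piece of a chamber. The replicates are called biological but no animal is named, so a p-value here reflects how much these samples vary, which may be partly technical. The breed of each dog and whether 1 dog gave both chambers are not stated.

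Tachypacing weakens the heart by driving the ventricles at a high rate without rest, and the resulting failure deepens while pacing goes on. Ventricular tissue responds with several programmes that run at different speeds. Cardiac myocytes switch on stress genes and rebuild their sarcomeres, the contractile units anchored at Z-discs, and their intercalated discs, the junctions that join myocytes end to end. Fibroblasts lay down collagen and other extracellular matrix, macrophages enter, and myocytes lower the expression of mitochondrial energy genes. A contrast of 5 with 2 weeks shows which parts of this response were larger or smaller at the later time. A higher level in such bulk tissue can come from more cells of a type or more RNA per cell, and these cannot be told apart here.

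Values are deposited log2 signals, and a difference of 1 is a doubling of the signal. Of the 10988 genes tested, each through 1 probe set, 0 passed an adjusted p of 0.05 between 5 and 2 weeks (0% of genes), in a limma fit over the 9 RV arrays with Benjamini-Hochberg adjustment over 25752 probe sets. The smallest adjusted p was 0.0652. At an unadjusted p under 0.05, 526 genes were higher (4.79%) and 452 were lower (4.11%) at 5 weeks, and the median difference over all genes was 0. The 3 late arrays all lay above the 3 early arrays for 692 genes (6.3%) and all below for 735 (6.69%). Against RV control, 30 genes passed at 2 weeks (0.273%), 21 of them higher. At 5 weeks 68 passed (0.619%), 59 of them higher. Contrasts against control are given beside the contrast of 5 with 2 weeks below, and they share arrays with it. They are therefore not independent support for it.

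The early arrays differed among themselves. Replicates 1 and 2 each had a mean r of 0.979 with the other early arrays over probe sets, but replicate 1 correlated less with the late arrays (0.974) and the controls (0.968), and replicate 2 more (0.984 and 0.982). The NPPB signal of replicate 2 signal, which reports the natriuretic peptide BNP made by stretched myocytes, was 6.34, within the control range of 6.30 to 6.39, while early replicates 1 and 3 measured 11.04 and 8.34. Late replicate 1 correlated at a mean r of 0.985 with the other late arrays but had lower levels of ventricular light chains. Its MYL2 signal was 12.76 and its MYL3 signal was 12.35, whereas the other RV arrays lay between 14.13 and 14.42 for MYL2 and between 13.84 and 14.15 for MYL3. MYL2 averaged 7.31 in RA controls and was 10.99 and 10.59 in RA late replicates 1 and 2, below every RV array. The library labelled RA late replicate 3 was at 14.17 for MYL2 and 13.89 for MYL3, within the range of the other RV arrays. Whether it and RV late replicate 1 were exchanged or mixed was not tested, and the labels do not tell, so results are also given without late replicate 1. The GAPDH signal of the 3' minus the 5' probe set, a sign of RNA integrity, spanned 1.09 to 1.42 in early and 1.28 to 1.47 in late arrays (exact permutation test, two-sided, p = 0.4, the smallest p for 3 against 3 being 0.1). Its part in the results was not tested.

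The genes of smallest p with a higher level at 5 weeks were CRYM, genes of the extracellular matrix, and several genes of signalling and transport. The 10 genes of smallest p in this direction differed by 0.60 to 2.04 on the log2 scale, which is 1.51-fold to 4.12-fold, with adjusted p from 0.0652 to 0.147. All 10 had their 3 late arrays above their 3 early arrays, beside 6.3% of all genes. They were chosen by p from these same arrays, so this separation is no further support. Of these 10, 6 passed as higher at 5 weeks than in controls, and 0 passed at 2 weeks. Of all 10988 genes, 59 passed as higher at 5 weeks and 21 at 2 weeks. The late arrays enter both contrasts.

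CRYM encodes mu-crystallin, a cytosolic protein that binds thyroid hormone. Its late arrays measured 7.80, 8.09 and 8.39 and its early arrays 5.66, 6.59 and 5.90, against 6.60, 6.19 and 6.09 in controls. The early and control arrays overlapped and every late array lay above both. The difference between 5 and 2 weeks was 2.04 (SE 0.23, 4.12-fold, adjusted p = 0.0652), and CRYM rose by 1.80 at 5 weeks over control (adjusted p = 0.016). CRYM is abundant in atrium, with a mean of 10.52 (SD 0.59, n = 3) in RA controls. Its second probe set differed by 0.56.

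THBS4, a matrix thrombospondin produced in strained tissue, measured 7.36, 7.46 and 7.77 at 5 weeks and 6.63, 5.82 and 6.08 at 2 weeks. Controls were lower still, at 5.93, 5.59 and 5.46. The difference was 1.35 (SE 0.20, 2.56-fold, adjusted p = 0.111), and THBS4 rose by 1.87 over control at 5 weeks (adjusted p = 0.015). The early mean lay between those of control and late, with 1 early array inside the control range.

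CCDC80, a secreted protein of the matrix, was 9.04, 9.17 and 9.24 at 5 weeks and 8.09, 8.47 and 8.18 at 2 weeks, a difference of 0.90 (SE 0.14, adjusted p = 0.111). A dimmer probe set of CCDC80 differed by 0.27. CILP, a matrix protein first found in cartilage, was 7.19, 6.88 and 6.63 against 6.11, 6.15 and 5.68, a difference of 0.92 (SE 0.16, adjusted p = 0.14), while its dimmer probe set differed by 0.09. Both genes passed as higher than control at 5 weeks, by 1.17 for CCDC80 and 1.07 for CILP. EPYC, a small leucine-rich proteoglycan, differed by 1.40 (adjusted p = 0.142), but its mean of 4.86 at 2 weeks was under the signal filter's limit of 5.31, near background. The other genes in this direction were SMPDL3A, a phosphodiesterase related to acid sphingomyelinase (1.13), TM4SF18, a membrane protein (0.74), KLHL5, a kelch-repeat protein (0.71), RAB6A, a small GTPase of the Golgi (0.62), and AKAP12, a scaffold for protein kinase A (0.60). SMPDL3A and AKAP12 were among the 6 that passed against control. Dimmer probe sets differed by 0.45 for SMPDL3A and by 0.05 and 0.58 for TM4SF18. Those of KLHL5 differed by 0.33 and 0.02, and those of RAB6A by 0.04 to 0.49.

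**Figure D1:**
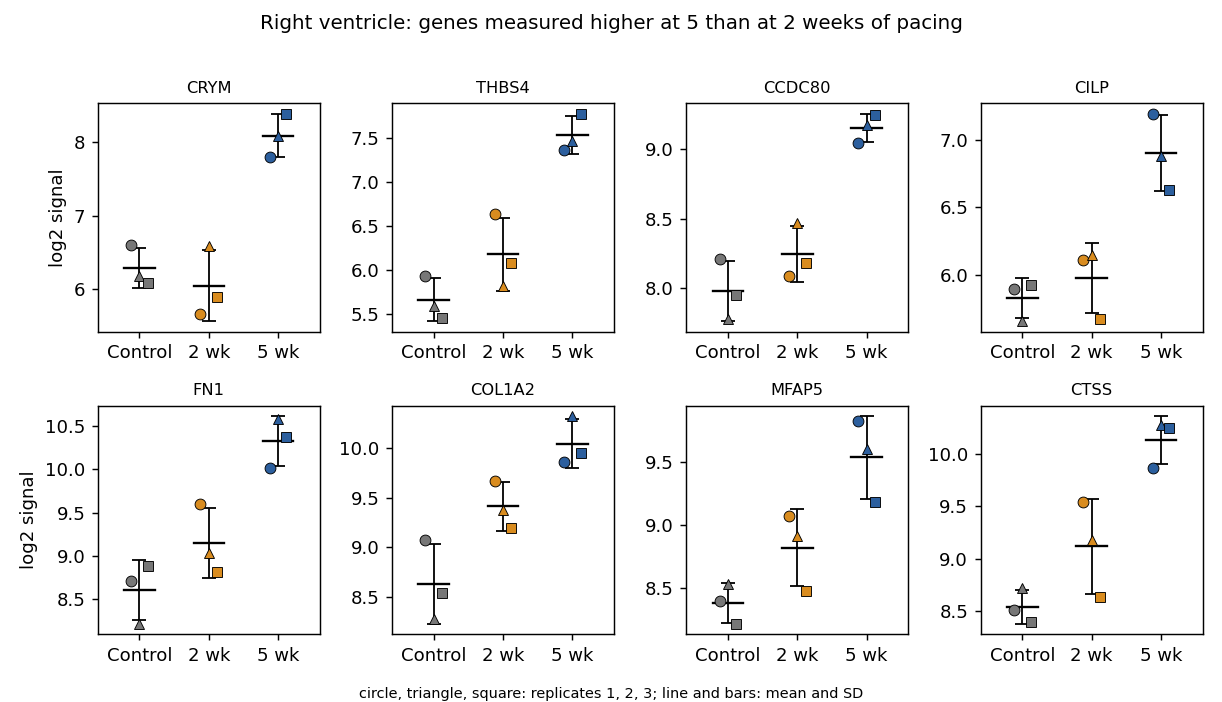
Log2 signal (y axis) of 8 genes in each RV array, by group on the x axis, with 3 arrays per group, the mean as a line and the SD as bars. All 8 genes have their 3 late arrays above their 3 early arrays, as for CRYM with 7.80 to 8.39 against 5.66 to 6.59. The genes were named by their p in this same contrast.

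The matrix genes shared this direction. Of 34 genes of fibrillar collagens and associated matrix, 32 had a positive difference between 5 and 2 weeks and 2 a negative one, with a median of 0.36 against 0 over all genes. In 11 of them (32.4%) all late arrays lay above all early arrays, beside 6.3% of all genes, and in 0 all lay below. None of the 34 passed the adjusted threshold between the stages. An unadjusted p under 0.05 was reached by 17, all higher, beside 4.79% of all genes in that direction. Against control the median was 0.37 at 2 weeks, when 0 passed, and 0.73 at 5 weeks, when 11 passed, all higher. Of all 10988 genes, 21 passed as higher at 2 weeks and 59 at 5 weeks. The mean level of the list was 7.37, 7.19 and 7.41 in controls, 7.90, 7.56 and 7.58 in early HF and 7.98, 8.19 and 8.13 in late HF, so the 3 groups did not overlap.

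FN1, fibronectin, on which new matrix is assembled, measured 10.01, 10.58 and 10.37 at 5 weeks and 9.60, 9.03 and 8.82 at 2 weeks, with controls between 8.22 and 8.89. The difference was 1.17 (SE 0.23, 2.25-fold, adjusted p = 0.168), and FN1 rose by 1.71 at 5 weeks over control (adjusted p = 0.017). Dimmer probe sets of FN1 differed by 0.03 and -0.05. OGN, the proteoglycan osteoglycin, had a narrow spread, with 6.93, 7.07 and 6.82 against 6.52, 6.50 and 6.47, a difference of 0.44 (adjusted p = 0.217). Its early arrays lay within the control range of 6.42 to 6.67.

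Among the fibroblast markers, MFAP5, a protein of elastic microfibrils, differed by 0.71 (SE 0.19, adjusted p = 0.289) and DPT, dermatopontin, by 0.37 (SE 0.12, adjusted p = 0.387). COL1A2 and COL1A1, the chains of collagen I, differed by 0.63 (SE 0.20, adjusted p = 0.401) and 1.14 (SE 0.39, adjusted p = 0.433). The late arrays of COL1A1 were 9.02, 10.39 and 9.11 and its early arrays 9.04, 7.93 and 8.13, which overlapped. Dimmer probe sets of COL1A1 differed by 0.38 and 0.16, and those of COL1A2 by -0.14 to 1.19. MFAP5, DPT and COL1A2 passed against control at 5 weeks, by 1.15, 0.79 and 1.41. Of the 18 fibroblast markers, 15 had a positive difference, 4 did not overlap upward (22.2%, beside 6.3% of all genes) and 1 downward, and the median was 0.28. The upward count was 7 without early replicate 2, beside 12.8% of all genes, and 6 without late replicate 1, beside 9.98%. Their mean level spanned 8.65 to 8.86 in early and 9.04 to 9.12 in late arrays (exact permutation test, two-sided, p = 0.1, adjusted p = 0.32 over 16 values). COL1A1, COL1A2 and MFAP5 are among the genes that belong to both lists. The part of fibroblast number in the matrix result was not tested. Without late replicate 1, 16 of the 34 matrix genes lay wholly above the early arrays (9.98% of all genes), and without early replicate 2, 15 of 34 did (12.8% of all genes).

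Genes of macrophages and of the response to interferon were also mostly higher at 5 weeks. CTSS, cathepsin S, a protease of antigen-presenting cells, measured 9.87, 10.28 and 10.25 at 5 weeks and 9.54, 9.18 and 8.64 at 2 weeks. The difference was 1.01 (SE 0.21, 2.02-fold, adjusted p = 0.186), and CTSS rose by 1.59 over control at 5 weeks (adjusted p = 0.016). The groups did not overlap. LYZ, lysozyme, differed by 0.47, CYBB, the catalytic subunit of the phagocyte oxidase, by 0.59 and C1QA, of complement C1q, by 0.31, each with overlapping arrays. Of 18 macrophage and myeloid markers 16 had a positive difference, with a median of 0.29, but 1 (5.6%, beside 6.3% of all genes) lay wholly above the early arrays. That count was 2 without early replicate 2, beside 12.8% of all genes, and 2 without late replicate 1, beside 9.98%. The mean level of this list was 7.43, 7.17 and 6.93 in early arrays and 7.48, 7.43 and 7.45 in late arrays, so the early arrays differed among themselves more than the late ones.

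Among 33 chemokine, cytokine and complement genes, 23 had a positive difference, with a median of 0.08, and 3 lay wholly above the early arrays (9.1%, near the 6.3% of all genes) and 0 below. Without early replicate 2 these counts were 7 and 4, beside 12.8% and 13.2% of all genes above and below. Without late replicate 1 they were 4 and 4, beside 9.98% and 12.6%. CCL2, which attracts monocytes, differed by 0.65 (SE 0.17, adjusted p = 0.289) and CFI, complement factor I, by 0.69 (SE 0.20, adjusted p = 0.347). Both rose over control at 5 weeks, CCL2 by 0.99 (adjusted p = 0.037) and CFI by 1.38 (adjusted p = 0.019). IL18 differed by 0.65 and IL33 by 0.82, with the IL18 mean of 4.92 at 2 weeks under the filter limit.

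In the interferon list the early mean, 6.90, did not lie between those of control, 6.95, and late, 7.11. Of its 28 genes, 21 had a positive difference, and the median was 0.22. In 9 (32.1%, beside 6.3% of all genes) the late arrays lay wholly above the early arrays and in 2 (7.1%) wholly below (beside 6.69%). Without early replicate 2 these counts were 11 and 2, beside 12.8% and 13.2% of all genes. Without late replicate 1 they were 9 and 2, beside 9.98% and 12.6%. The median against control was -0.02 at 2 weeks and 0.17 at 5 weeks, and 0 members passed in either. PSMB9, a subunit of the immunoproteasome, measured 7.78, 7.48 and 7.68 at 5 weeks and 7.17, 7.22 and 7.09 at 2 weeks, a difference of 0.49 (SE 0.10, adjusted p = 0.217). The controls, at 7.30, 7.28 and 7.48, lay between these ranges or touched the late one. SAMD9L, IFI44L and OAS1, induced by interferon, differed by 0.54, 0.87 and 0.38. Dimmer probe sets differed by 0.20 for IFI44L and by 0.23 and -0.01 for OAS1. The mean level of the list was highest in late replicate 3, at 7.31, and 7.04 and 6.99 in late replicates 1 and 2, beside 6.97, 6.87 and 6.86 in early HF. Controls were at 6.87, 6.89 and 7.08, so the late arrays overlapped them.

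In the other direction, the genes of smallest p mostly had a high signal at 2 weeks and a lower one at 5. The 10 genes of smallest p differed by 0.57 to 1.07 in size, which is 1.49-fold to 2.10-fold, with adjusted p from 0.111 to 0.159. All 10 had their 3 late arrays below their 3 early arrays, beside 6.69% of all genes. These too were chosen by p from the same arrays, so the separation is no further support. Of these 10, 8 passed as higher than control at 2 weeks and 0 passed at 5 weeks. Of all 10988 genes, 21 passed as higher at 2 weeks and 59 at 5 weeks. The early arrays enter both contrasts.

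LMO7, a protein that links the actin cytoskeleton to cell junctions, measured 10.56, 10.09 and 10.65 at 2 weeks and 9.40, 9.44 and 9.24 at 5 weeks, with controls at 9.49, 9.55 and 9.26. The late arrays lay in or near the control range and the early arrays above both. The difference was -1.07 (SE 0.15, 2.10-fold, adjusted p = 0.111), and LMO7 rose by 1.00 at 2 weeks over control (adjusted p = 0.03). Of 5 LMO7 probe sets, 4 differed by -1.09 to -0.83 and the dimmest by -0.09.

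PTGER4, the EP4 receptor for prostaglandin E2, was 8.25, 8.48 and 8.35 at 2 weeks and 7.52, 7.50 and 7.48 at 5 weeks, a difference of -0.86 (SE 0.14, adjusted p = 0.114). It rose by 1.45 at 2 weeks over control (adjusted p = 0.011). LPL, lipoprotein lipase, which releases fatty acids for uptake by muscle, was 10.92, 11.26 and 11.16 at 2 weeks and 10.44, 10.57 and 10.32 at 5 weeks, with controls between 10.35 and 10.53. Its difference was -0.67 (SE 0.12, adjusted p = 0.14). CCN3, a matricellular protein, was 10.72, 10.97 and 10.66 at 2 weeks and 9.85, 9.96 and 9.80 at 5 weeks, a difference of -0.91 (SE 0.17, adjusted p = 0.142). In these 3 genes early replicate 2 was the highest array of its group, unlike in NPPB.

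The other genes in this direction were NFIL3, a transcriptional repressor (-1.05), ANKHD1, an ankyrin repeat protein (-0.84), TSPAN2, a tetraspanin (-0.75), PAIP2B, an inhibitor of translation that binds the poly(A)-binding protein (-0.70), MYOM1 (-0.59) and USP28, a deubiquitinase (-0.57). A dimmer probe set of USP28 differed by -0.03. Of the other 5 ANKHD1 probe sets, 1 differed by -1.33 and 4 by -0.12 to -0.02. NFIL3 and PAIP2B were the 2 of the 10 that did not pass against control at 2 weeks.

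**Figure D2:**
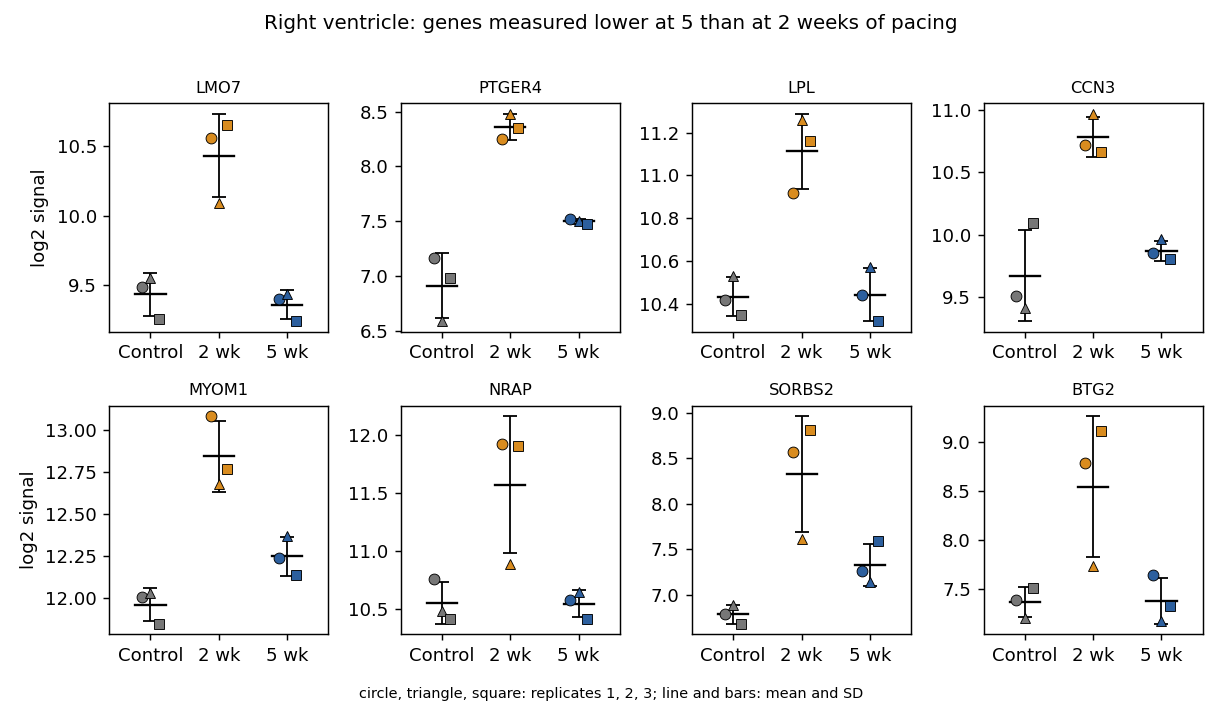
Log2 signal (y axis) of 8 genes in each RV array, by group on the x axis, with 3 arrays per group, the mean as a line and the SD as bars. The late arrays lie below the early ones in all 8, which were named by their p in this same contrast. Early replicate 2 (triangle) is the lowest early array for LMO7, MYOM1, NRAP, SORBS2 and BTG2 but not for PTGER4, LPL or CCN3.

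Many genes of the Z-disc and the intercalated disc measured lower at 5 weeks, though none passed the threshold. Of 39 sarcomere and Z-disc genes, 31 had a negative difference and 8 a positive one, with a median of -0.23. In 6 (15.4%, beside 6.69% of all genes) the late arrays lay wholly below the early arrays and in 1 wholly above. The median against control was 0.27 at 2 weeks and 0.06 at 5 weeks. The mean level of the list was 11.52, 11.12 and 11.40 in early arrays and 10.97, 11.20 and 11.13 in late arrays, which overlapped through early replicate 2, with controls between 10.97 and 11.07.

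MYOM1, myomesin of the sarcomere's M-band, was 13.08, 12.68 and 12.77 at 2 weeks and 12.24, 12.37 and 12.14 at 5 weeks (SE 0.11, adjusted p = 0.159), and it rose by 0.88 at 2 weeks over control (adjusted p = 0.023). LMOD2, leiomodin, which elongates thin filaments, was 11.98, 11.27 and 11.81 at 2 weeks and 11.12, 11.17 and 11.14 at 5 weeks, a difference of -0.54 (SE 0.16, adjusted p = 0.333). ACTN2, the Z-disc actinin, differed by -0.42 (SE 0.13, adjusted p = 0.373). MYH7, the slow myosin heavy chain, differed by -0.23 (SE 0.07, adjusted p = 0.387). Unlike MYOM1 and LMOD2, MYH7 had early arrays of 14.09 to 14.14, within the control range of 14.03 to 14.18, and late arrays of 13.81 to 14.00.

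Of 24 gap junction and intercalated disc genes, 6 (25%, beside 6.69% of all genes) lay wholly below the early arrays at 5 weeks and 0 above, while the median was -0.07. NRAP, which anchors actin filaments at the intercalated disc, measured 11.92, 10.89 and 11.90 at 2 weeks and 10.58, 10.65 and 10.42 at 5 weeks, a difference of -1.02 (SE 0.23, adjusted p = 0.245). SORBS2, an adaptor of Z-discs and junctions, was 8.57, 7.61 and 8.81 against 7.26, 7.14 and 7.59 (SE of the difference 0.25, adjusted p = 0.274). In both, early replicate 2 lay closest to the late arrays. CXADR, an adhesion receptor of the disc, was 9.13, 9.13 and 8.88 against 8.63, 8.70 and 8.56, a difference of -0.42 (SE 0.11, adjusted p = 0.288). SORBS2 and CXADR rose at 2 weeks over control, by 1.54 (adjusted p = 0.038) and 0.75 (adjusted p = 0.026). DSP, desmoplakin, differed by -0.36 (adjusted p = 0.364), from early arrays within the control range.

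XIRP2, an actin-binding protein of the same structures, had the widest early spread of these genes. It measured 8.29, 5.89 and 7.37 at 2 weeks and 5.66, 6.30 and 5.61 at 5 weeks, with controls between 5.71 and 5.87, a difference of -1.33 (SE 0.45, adjusted p = 0.428). The groups overlapped through early replicate 2. Without that array, 16 of 39 sarcomere and Z-disc genes and 9 of 24 intercalated disc genes lay wholly below the early arrays, beside 13.2% of all genes. Without late replicate 1 these counts were 8 and 6, beside 12.6% of all genes.

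Immediate early genes, which are transcribed within minutes of a stimulus, included 4 of 19 (21.1%, beside 6.69% of all genes) with late arrays wholly below the early ones and 0 wholly above, with a median of -0.13. BTG2, a brake on proliferation, was 8.78, 7.74 and 9.11 at 2 weeks and 7.64, 7.18 and 7.33 at 5 weeks, a difference of -1.16 (SE 0.28, adjusted p = 0.259). Controls lay between 7.21 and 7.51, and the late arrays overlapped them. JUN, a subunit of the AP-1 transcription factor, differed by -0.79 (SE 0.24, adjusted p = 0.371), DUSP1, a phosphatase of MAP kinases, by -0.65 (SE 0.23, adjusted p = 0.434) and IER3 by -0.54 (SE 0.18, adjusted p = 0.407). For JUN, the probe set free of a cross-hybridisation suffix differed by 0.03. Dimmer probe sets of DUSP1 differed by 0.06 and -0.50. Of 33 genes of protein folding and endoplasmic reticulum stress, 24 had a negative difference, with a median of -0.09, and 3 (9.1%) lay wholly below the early arrays, a share near that of all genes. Their smallest p values were for HSP90AA1, a cytosolic chaperone (-0.45), XBP1, a transcription factor of the unfolded protein response (-0.38), and DNAJB4, a co-chaperone (-0.65). Without early replicate 2, 9 of 19 immediate early genes and 14 of 33 folding and stress genes lay wholly below, beside 13.2% of all genes, and without late replicate 1 these counts were 6 and 6, beside 12.6%.

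**Figure D3:**
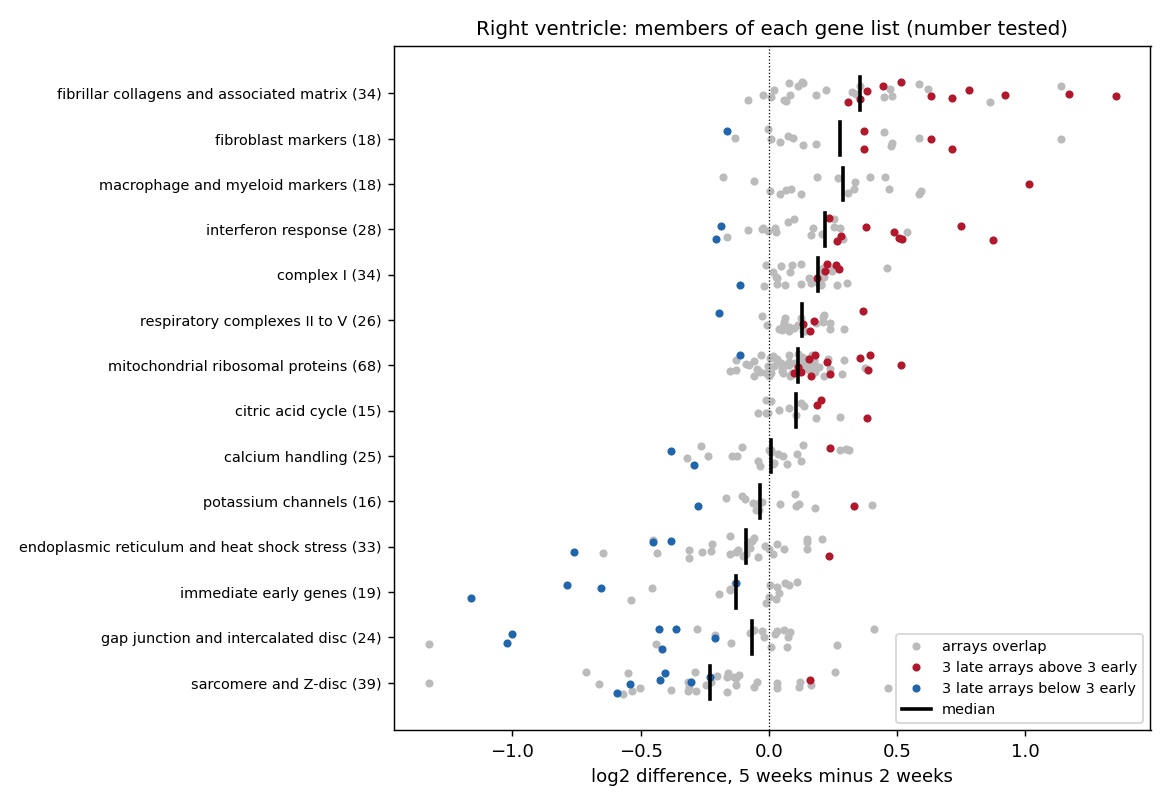
Each point is 1 gene's log2 difference between 5 and 2 weeks in RV (x axis), by gene list (y axis, with the number of genes tested), coloured by whether the 3 late arrays lie wholly above or below the 3 early arrays, and black lines are medians. The matrix list has a median of 0.36 with 11 genes wholly above, and the sarcomere and Z-disc list a median of -0.23 with 6 wholly below.

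Genes of the respiratory chain, the citric acid cycle and the mitochondrial ribosome differed by small amounts, most of them upward at 5 weeks. Of 34 genes of complex I, the first enzyme of the respiratory chain, 31 had a positive difference, with a median of 0.19, and 5 (14.7%, beside 6.3% of all genes) lay wholly above the early arrays and 1 below. The median against control was -0.25 at 2 weeks and -0.08 at 5 weeks, and 0 members passed in either. The mean level of complex I was 11.29, 11.55 and 11.45 in early arrays and 11.57, 11.60 and 11.58 in late arrays, with controls of 11.73, 11.67 and 11.62. The late arrays thus lay between the early and the control arrays. NDUFA4, which the list holds although it is now assigned to complex IV, differed by 0.22 (SE 0.08, adjusted p = 0.443). NDUFS3 differed by 0.46 (SE 0.16, adjusted p = 0.443), NDUFV3 by 0.27 and NDUFAB1 by 0.19. NDUFS3 was the only one of these 4 whose arrays overlapped, since early replicate 2 measured 11.19 and late replicate 1 measured 11.17. Dimmer probe sets of NDUFAB1 differed by -0.35 to 0.34.

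The same direction was measured for complexes II to V, with 23 of 26 positive, a median of 0.13, 4 wholly above the early arrays (15.4%, beside 6.3% of all genes) and 1 wholly below. SDHD, which anchors complex II in the membrane, differed by 0.37 (SE 0.10, adjusted p = 0.33). In the citric acid cycle, 11 of 15 genes were positive, with a median of 0.11, 3 wholly above (20%) and 0 below. Its genes of smallest p were IDH3A and IDH3B, subunits of the NAD-dependent isocitrate dehydrogenase, at 0.38 (SE 0.11, adjusted p = 0.33) and 0.28. Of 68 mitochondrial ribosomal proteins, 54 were positive, with a median of 0.11, and 12 (17.6%) lay wholly above the early arrays and 1 below. MRPL48 measured 10.11, 10.10 and 9.97 at 5 weeks and 9.32, 9.74 and 9.58 at 2 weeks, a difference of 0.51 (SE 0.12, adjusted p = 0.245), with controls of 10.18 to 10.24 above both. MRPS12, MRPL12 and MRPS33 differed by 0.39, 0.39 and 0.36. Without early replicate 2 the counts wholly above were 16 of 34 for complex I, 13 of 26 for complexes II to V, 6 of 15 for the citric acid cycle and 19 of 68 for the mitochondrial ribosome, beside 12.8% of all genes. Without late replicate 1 they were 7, 12, 7 and 15 in the same order, beside 9.98%. The 46 cytosolic ribosomal proteins had a median of 0.03, with 0 wholly above and 0 wholly below (beside 6.3% and 6.69% of all genes). Those of fatty acid uptake and oxidation also had a median of 0.03, with 0 of 34 wholly above and 4 wholly below (11.8%, beside 6.69% of all genes), LPL among them. Without early replicate 2 these counts were 7 and 6, beside 12.8% and 13.2% of all genes above and below. Without late replicate 1 they were 5 and 4, beside 9.98% and 12.6%.

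**Figure D4:**
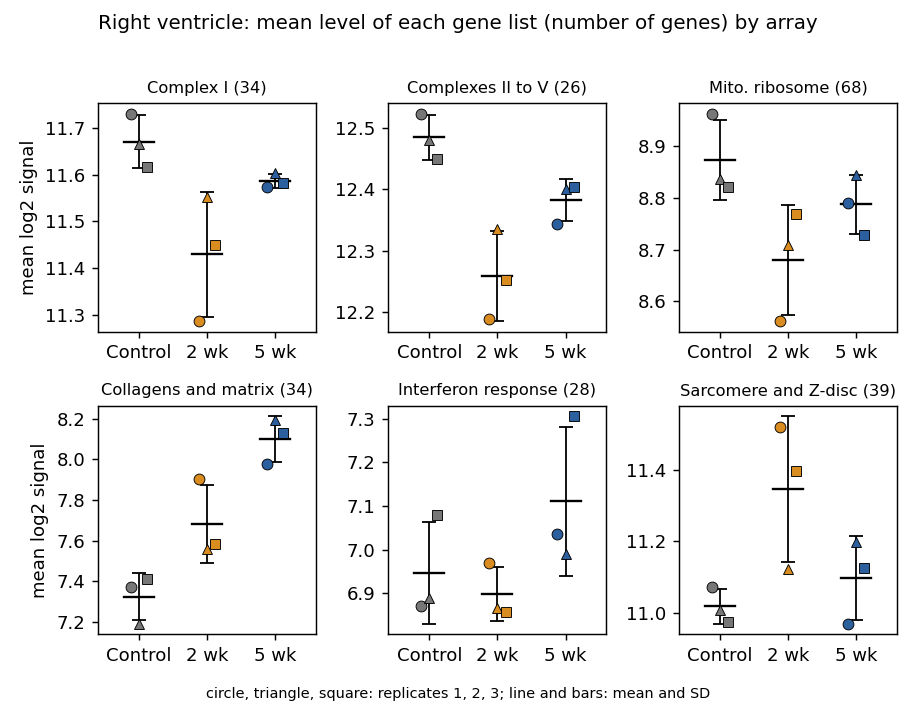
Mean log2 signal of the genes of a list (y axis) in each RV array, by group on the x axis, with the number of genes in parentheses, the mean of 3 arrays as a line and their SD as bars. For complex I the late arrays (11.57 to 11.60) lie between the early (11.29 to 11.55) and the control arrays (11.62 to 11.73), and for the matrix list all 3 groups are separate.

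Atrial and ventricular markers were examined because late replicate 1 differed from the other RV arrays in the ventricular ones. MYL7, the atrial regulatory light chain, measured 13.00, 12.58 and 12.86 at 5 weeks and 12.06, 12.27 and 11.77 at 2 weeks, with controls of 12.31, 11.97 and 11.70, a difference of 0.78 (SE 0.17, adjusted p = 0.234). The late arrays were all above the others, and all stayed below the RA control mean of 14.04. DKK3, a secreted glycoprotein high in atrium, differed by 1.02 (SE 0.44, adjusted p = 0.522), and GJA5, connexin 40, by 0.41. Dimmer probe sets differed by -0.14 for DKK3 and by 0.03 and -0.06 for GJA5. Late replicate 1 was the lowest late array for DKK3, at 7.77 against 8.53 and 8.27, but the highest for MYL7. MYL4, the atrial essential light chain, did not separate the stages: it was 10.88, 7.98 and 10.36 at 2 weeks and 8.69, 11.79 and 11.14 at 5 weeks. Of 10 atrial markers, 8 were positive, with a median of 0.18, and 2 lay wholly above the early arrays (20%, beside 6.3% of all genes). Without late replicate 1 that count was 4, beside 9.98% of all genes. Without early replicate 2, 2 lay wholly above and 2 wholly below, beside 12.8% and 13.2% of all genes. The mean level of the list spanned 7.55 to 7.94 in early and 7.98 to 8.20 in late arrays (exact permutation test, two-sided, p = 0.1, adjusted p = 0.32).

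Of 14 ventricular markers 11 were negative, with a median of -0.20, and 3 lay wholly below the early arrays (21.4%, beside 6.69% of all genes). That count was 6 without early replicate 2, beside 13.2% of all genes, and 4 without late replicate 1, beside 12.6%. MYL2 and MYL3 differed by -0.55 and -0.53, and without late replicate 1 by -0.04 and -0.03. IRX5, a transcription factor high in ventricle, named after its values were seen, was 6.88 in late replicate 1 and between 7.56 and 8.61 in the other RV arrays. Without late replicate 1 the medians were 0.05 for the atrial and -0.07 for the ventricular list, while the matrix, complex I and sarcomere medians were 0.34, 0.18 and -0.16. The part of the chamber markers in the other results was not tested further.

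Genes of calcium handling had a median of 0.01 over 25 members, and 0 passed. Of these, 1 lay wholly above the early arrays (4%, beside 6.3% of all genes) and 2 wholly below (8%, beside 6.69%). CAMK2B, a subunit of the calcium and calmodulin-dependent kinase, was 7.24, 7.53 and 7.44 at 2 weeks and 6.91, 7.13 and 7.03 at 5 weeks, a difference of -0.38 (SE 0.11, adjusted p = 0.32). It fell by 0.88 at 5 weeks below control (adjusted p = 0.015). SLC8A1, the sodium-calcium exchanger, differed by -0.29 (SE 0.09, adjusted p = 0.401). The calcium pump ATP2A2, its inhibitor PLN and the release channel RYR2 differed by 0.11 (SE 0.12), 0.13 (SE 0.10) and 0.01 (SE 0.12). Their dimmer probe sets differed by -0.27 for ATP2A2, 0.04 and -0.16 for PLN and -0.38 for RYR2. The 16 potassium channel genes had a median of -0.03, with 1 wholly above and 1 wholly below (6.25% each, beside 6.3% and 6.69% of all genes).

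Whether these differences were particular to the ventricle was tested against RA as the difference between chambers in the contrast of 5 with 2 weeks. In the fit of 18 arrays 0 genes passed (763 at an unadjusted p under 0.05, smallest adjusted p = 0.137). The library labelled RA late replicate 3 resembled the RV controls (mean r = 0.984) more than any other RA array did, and without it 0 passed too (645 unadjusted, smallest adjusted p = 0.254). No gene was thus called as specific to RV. Without that library, FN1 differed by -0.98 in RA and 1.17 in RV, a difference between chambers of 2.15 (SE 0.50, adjusted p = 0.596), and LMO7 differed by 0.26 in RA and -1.07 in RV, a difference of -1.33 (SE 0.25, adjusted p = 0.337). CRYM was higher at 5 weeks in both, by 0.91 in RA and 2.04 in RV, with neither difference past the threshold.

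The count of genes called turned on early replicate 2. With it left out, 54 genes passed, 8 higher and 46 lower at 5 weeks, with a smallest adjusted p of 0.000632. The genes of smallest p without it, named after these values were seen, were TNNT1, the slow skeletal troponin T, at -1.67 (adjusted p = 0.000632), CRYM at 2.31 (adjusted p = 0.000909), STYXL2, a muscle protein, at -1.40 (adjusted p = 0.0011), and NRAP at -1.36 and CCN1, a matricellular protein, at -2.08 (adjusted p = 0.00126 each). The TNNT1 value comes from a probe set with a cross-hybridisation suffix, and the dimmer one without it differed by -0.01 with all arrays. TNNT1 measured 10.50, 9.09 and 10.38 at 2 weeks, 8.72, 8.96 and 8.63 at 5 weeks and 9.23 to 9.30 in controls. Early replicate 2 was thus below the controls for TNNT1, and also for CCN1, with 11.51, 9.10 and 11.70 at 2 weeks against controls of 9.72 to 9.94. LMO7, BTG2, SORBS2, XIRP2, LMOD2, NFIL3, ACTN2 and MYOM1 also passed as lower without it, and THBS4, CCDC80 and CILP as higher. Each of the 9 RV arrays was left out in turn, and without this one the early group rests on 2 arrays. Leaving out any other single RV array gave 0 to 2 genes, which were THBS4 without early replicate 1, and CRYM and ENPP2, the enzyme autotaxin, without late replicate 1.

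**Figure D5:**
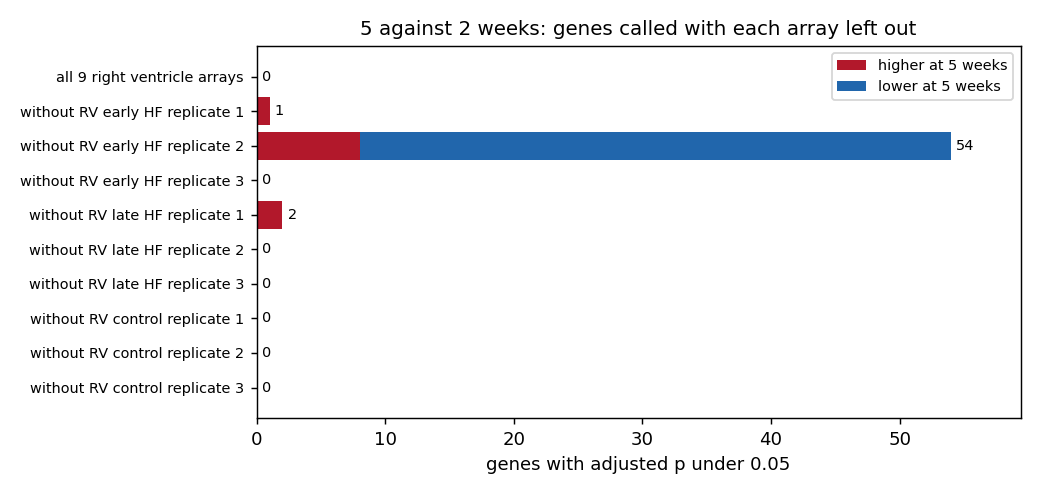
Number of genes with an adjusted p under 0.05 between 5 and 2 weeks (x axis) for all 9 RV arrays and with each array left out in turn (y axis), split by direction. The count is 0 with all arrays, 54 without early replicate 2 and 0 to 2 without any other.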

How the data were processed

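The authors deposited 1 table of log2 signal per probe set for 18 arrays. The log2 scale was read from the values; per the submitters' processing notes the tool was MAS5, and its version and settings are not given in the sources used here. The sorted values nearly coincide between arrays, and the values were used as deposited. Of 43035 probe sets, 111 controls and the 40% of lowest mean signal (limit 5.31) were left out, and 25752 were tested. Symbols came from the platform annotation (29254 probe sets with 1 symbol, 439 with several, 13231 with none). The probe set of highest mean signal with 1 symbol stood for its gene (10988 genes). The 9 RV arrays were fitted with 1 mean per group in limma 3.58.1 (R 4.3.3), with trended empirical Bayes, two-sided tests and Benjamini-Hochberg adjustment over probe sets. The fit was tested on simulated data. Values are means of 3 arrays, whose number limits the precision. Figures were drawn with Python 3.11.15.

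The comparison, the 45 gene lists and the tests were chosen with earlier results of these data known. Genes are named by a rule: the 12 largest past the threshold in each direction, or with fewer than 10 such genes those of smallest p until 10, then up to 4 of smallest p in a described list, and chosen heart failure genes. MYH6, KCNJ2, KCNE1 and AGTR1 of these were not tested. Counts of genes whose arrays do not overlap were added after 0 genes had passed, as were those counts without early replicate 2 or late replicate 1. No set test was run. The mean levels of the 14 marker lists were compared between early and late arrays by exact permutation over arrays.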

Additional observations from a re-analysis of the deposited data

How the results depend on the processing

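The count of genes called between 5 and 2 weeks was 0 in the fit of 9 RV arrays and stayed 0 with all 18 arrays, with 17, with the 6 HF arrays alone, with quantile normalization, median centring, a 60% signal filter, no variance trend or no probe sets of a cross-hybridisation suffix. It was 1, higher at 5 weeks, with no signal filter, with array weights, or with fit and adjustment over only the probe sets that stand for genes. This gene was CRYM. The sorted deposited values nearly coincide between arrays, so quantile normalization and median centring could change little. Leaving out each array in turn gave 0 to 54 genes, 0 to 8 of them higher and 0 to 46 lower. The count of the difference between chambers was 0 with 18 and with 17 arrays.

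Each of the 89 genes named in the text had a value under 19 to 21 of the 21 alternatives, and 73 had one under all. In 83 the direction was the same under every alternative that gave a value, and in 6 it was not. The difference is set by the 6 HF arrays, so adding or removing other arrays cannot move it. Nor do the variance trend, the signal filter, the adjustment or the replicate block, so an unchanged direction under these is no support. NPPB differed by 0.55 without early replicate 1, JUN by 0.027, ATP2A2 by -0.27 and PLN by -0.16 with the probe sets of a cross-hybridisation suffix left out, and RYR2 by -0.027 with quantile normalization. Leaving out 1 array gave -1.80 to 0.55 for NPPB, -0.08 to 1.73 for MYL4, -0.022 to 0.21 for ATP2A2 and -0.12 to 0.10 for RYR2. The cause was not tested.

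The medians of the matrix, fibroblast, macrophage, interferon, complex I, mitochondrial ribosome and sarcomere lists kept their sign under all 21 alternatives, with ranges of 0.32 to 0.43 for matrix, 0.09 to 0.23 for complex I and -0.30 to -0.14 for sarcomere and Z-disc. That of immediate early genes reached 0.02. Here too, many alternatives leave the differences unchanged by design, so an unchanged sign under those is no support. With the replicate number as a block (replicate block), 0 genes were called and the smallest adjusted p was 0.116. Deviations of early and late arrays with the same number correlated at 0.02, -0.33 and -0.06. With so few arrays these values cannot tell whether the numbers pair the samples, and the labels do not say.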

Other observations

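Genes of other groups were described by the same counts, and none of those named here passed the threshold between 5 and 2 weeks. Of 29 antioxidant and redox genes, 6 had late arrays wholly above the early arrays (20.7%, beside 6.3% of all genes) and 1 wholly below (3.4%, beside 6.69%), with a median of 0.08. NQO1, a quinone reductase, was 6.89, 7.11 and 6.82 at 5 weeks and 6.67, 6.59 and 6.50 at 2 weeks, a difference of 0.35 (SE 0.10, adjusted p = 0.346). Its dimmer probe set differed by -0.04. GSR, glutathione reductase, differed by 0.35 and SOD2, the mitochondrial superoxide dismutase, by 0.29. In glucose use, 5 of 30 genes lay wholly above (16.7%) and 0 below, with a median of 0.03, and those of smallest p were PDHB and PDHA1, subunits of pyruvate dehydrogenase, at 0.29 and 0.23. Without late replicate 1 the counts wholly above were 10 antioxidant and 8 glucose genes, beside 9.98% of all genes, and without early replicate 2 they were 7 and 5, beside 12.8%. EDNRA, the endothelin A receptor, differed by 0.40 (SE 0.12, adjusted p = 0.348), and ADRB1, the main cardiac beta-adrenergic receptor, by -0.23 (SE 0.08, adjusted p = 0.443). The dimmer probe set of EDNRA differed by -0.12.

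NEFL, the light chain of neurofilaments, had the widest difference of the nerve markers. It measured 8.30, 9.21 and 8.60 in controls, 4.93, 5.49 and 4.10 at 2 weeks and 8.21, 5.38 and 7.20 at 5 weeks. It fell by 3.86 at 2 weeks (adjusted p = 0.03), to a mean of 4.84 that lies under the filter limit, and the difference between 5 and 2 weeks was 2.09 (SE 0.58, adjusted p = 0.323) with overlapping arrays. Of 11 nerve and Schwann cell markers, 0 lay wholly above the early arrays (beside 6.3% of all genes) and 1 wholly below (9.1%, beside 6.69%). Their median was 0.09.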
